A study of Mus musculus with 6 samples.

Results

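The 10 genes described here encode immune checkpoint and costimulation molecules: the PD-1 ligands *Cd274* and *Pdcd1lg2*, the CD28 and CTLA-4 ligands *Cd80* and *Cd86*, the receptor and ligand pair *Havcr2* and *Lgals9*, the pair *Cd47* and *Sirpa*, and the pair *Cd200* and *Cd200r1*. They were chosen by name, from what their products do and not by a measured value, out of 54532 genes in all. Earlier results of these data were known when they were chosen. RNA was sequenced from GFP+ leukemia cells sorted from the bone marrow of mice with acute myeloid leukemia (AML) driven by RUNX1-ETO9a (RE9a), a truncated form of the fusion protein of t(8;21) AML. Groups of 3 libraries were compared: *WT Phf6,RE9a*, replicates 1, 2 and 3, and *VC Phf6,RE9a*, replicates 11, 12 and 13. Fetal liver cells of both groups came from male mice with a floxed *Phf6* allele (Phf6 fl/y), received the RE9a-GFP retrovirus and were passed serially through male recipients. The *VC Phf6,RE9a* cells also carried Vav1-Cre, which is active throughout the blood system, so *Phf6* was targeted in the donor blood cells at large and not only in the leukemia. The sources used here do not give the passage of the sequenced cells or whether the 3 libraries of a group came from separate leukemias, so p-values measure only the spread between these libraries, which may be technical.

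T cells are restrained when PD-1 on their surface meets PD-L1 (*Cd274*) or PD-L2 (*Pdcd1lg2*), and they are activated when CD28 meets CD80 or CD86, while CTLA-4 competes for the same molecules. TIM-3 (*Havcr2*) is an inhibitory receptor that binds galectin-9 (*Lgals9*), and in AML it is also known as a surface molecule of leukemic stem cells. CD47 is read by SIRP-alpha (*Sirpa*) on phagocytes as a signal to leave a cell alone, and CD200 restrains myeloid cells, mast cells among them, through CD200R1.

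The PD-1 ligand genes had the largest falls among the members. They lie next to each other on chromosome 19 of the mouse build GRCm38, with 22.8 kb between them. Their promoter windows from RefSeq are shown because both genes fell in *VC Phf6,RE9a* cells, with capitals on the matches to letters that NF-κB or GATA factors are known to bind. The *Cd274* stretch is chr19:29367391-29367437 on the plus strand and ends at the base before its RefSeq start (bases further out, which lie in an exon of the neighbouring gene, are not shown), and the *Pdcd1lg2* stretch is chr19:29410669-29410918 on the plus strand and ends in the same way.
Cd274: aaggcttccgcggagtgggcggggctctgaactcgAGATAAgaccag
Pdcd1lg2: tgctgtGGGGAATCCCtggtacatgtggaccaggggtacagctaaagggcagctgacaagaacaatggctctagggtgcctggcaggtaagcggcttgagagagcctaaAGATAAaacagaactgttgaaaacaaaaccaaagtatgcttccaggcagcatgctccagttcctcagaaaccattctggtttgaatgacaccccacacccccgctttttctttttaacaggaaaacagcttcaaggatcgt
In *Pdcd1lg2* the first run of capitals matches GGGNNNNNCC (NF-κB), where N is any base, and reads as a match on both strands. The later run matches AGATAA, which GATA factors are known for, as do the capitals of *Cd274*. Over the 250 bases before each start, searched on both strands, GGGNNNNNCC was found in 45.8% of 32851 RefSeq promoter windows and AGATAA in 9.99%. The *Cd274* window held 2 matches to AGATAA, 1 of them in the stretch shown, and 0 to GGGNNNNNCC, and the *Pdcd1lg2* window held 1 stretch of each. Neither window held GAAANNGAAA (IRF, in 2.98% of windows), TTCNNNGAA (STAT, in 7.02%) or TGTGGT (RUNX, in 14%). RefSeq gave windows for 7 of the 10 members. Of the others, the *Lgals9* window held GGGNNNNNCC and GAAANNGAAA, that of *Cd80* held GGGNNNNNCC, that of *Havcr2* held TGTGGT, that of *Cd200* held AGATAA, and the *Cd47* windows held none of the 5. These are matches of letters and not sites shown to be bound.

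The libraries held 15675358 to 16817994 counts, so that a gene with 0 counts could still lie at up to 3 counts, or 0.175 to 0.204 CPM (read counts relative to library size, which was scaled by TMM), a limit that covers counting error only. *Phf6* itself had 1044, 827 and 1142 counts without Cre and 388, 314 and 331 with Vav1-Cre (log2 fold change -1.66, edgeR adjusted p = 9.32e-05). The markers went in part against the label of myeloid leukemia cells, so the cells are named here by their label alone. *Ptprc*, which encodes CD45 and is carried by nearly all white blood cells, was low (1.23 ± 0.556 FPKM, then 2.22 ± 1.10 FPKM). *Cpa3*, which encodes a mast cell protease, was at 4422 ± 992 FPKM and then 178 ± 76.5 FPKM, and *Kit*, a receptor of progenitors and mast cells, fell by 3.15 on the log2 scale in *VC Phf6,RE9a* cells. Of the 10 myeloid progenitor markers 5 rose, *Mpo* among them, and 3 fell, *Kit* among them. The rise of *Mpo* (1.88) did not pass without replicate 1 (1.65, edgeR adjusted p = 0.0612) or replicate 11 (1.65, edgeR adjusted p = 0.0585). These 10 summed to 2622 to 3950 CPM in *WT Phf6,RE9a* and 791 to 1061 CPM in *VC Phf6,RE9a* libraries. Most of the *WT Phf6,RE9a* sum came from *Kit* (2420 ± 471 CPM). The 10 mast cell and basophil markers summed to 18396 to 29591 CPM in *WT Phf6,RE9a* and 6890 to 7561 CPM in *VC Phf6,RE9a* libraries, and 9 of them fell. The 14 markers of maturing granulocytes and monocytes summed to 218 to 551 CPM and then 1038 to 3849 CPM, and 11 of them rose. All 8 erythroid markers rose (1915 to 2715 CPM, then 5783 to 6404 CPM). Cells of the T and NK lineage were barely read, with 12 markers summing to 2.31 to 3.77 CPM and 4.75 to 10.4 CPM, and at most 6 counts of *Cd3e*. In sorted cells measured in bulk, fewer cells of a type and less RNA per cell cannot be told apart.

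Of the 10 members 8 were tested, since *Cd86* and *Cd200* had too few counts. At an adjusted p under 0.05 from edgeR, 4 members fell in *VC Phf6,RE9a* cells (*Pdcd1lg2*, *Cd274*, *Havcr2* and *Cd200r1*), against 22.7% of the 14169 genes tested that fell. *Sirpa* and *Lgals9* rose, against 21.5% of all genes that rose. *Cd80* and *Cd47* did not pass. Library by library, 3 of the 8 tested members lay above every *WT Phf6,RE9a* library in all *VC Phf6,RE9a* libraries and 4 lay below, and 57.3% of all tested genes had groups that did not overlap (28.9% above, 28.4% below). The median log2 fold change of the 8 tested members was -0.13, and that of all tested genes was 0.013. With 44.2% of genes called in one direction or the other, a count of 6 called among 8 is read against that background.

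**Figure D1:**
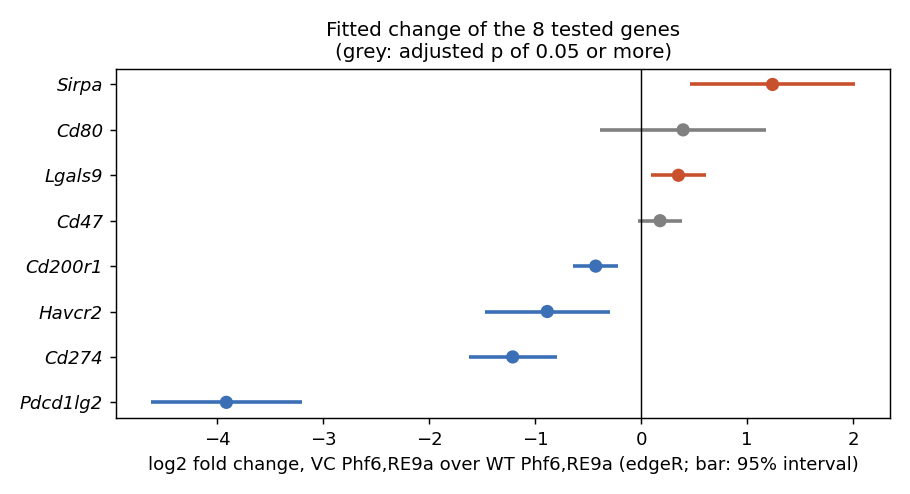
Fitted log2 fold change (*VC Phf6,RE9a* over *WT Phf6,RE9a*, horizontal axis) of the 8 tested members, with points for the edgeR estimate and bars for its 95% interval. Blue marks genes that fell, red genes that rose and grey those that did not pass. *Pdcd1lg2*, at -3.91, lies far to the left of the other 7, and the intervals of *Cd80* and *Cd47* include 0.

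*Pdcd1lg2* (PD-L2), at 29410919 to 29471157 on the plus strand of chromosome 19, was read 632, 1005 and 536 times in *WT Phf6,RE9a* libraries, against 59, 46 and 54 in *VC Phf6,RE9a*. Each *VC Phf6,RE9a* library lay far under each *WT Phf6,RE9a* library. The level fell 15.1-fold, from 47.2 ± 18.7 CPM to 3.12 ± 0.408 CPM, where errors here and in what follows are SD over n = 3 libraries (log2 fold change -3.91, standard error 0.31, quasi-likelihood test of edgeR, adjusted p = 9.63e-05). Of all genes tested, 1.54% had a fitted fold change at least as low. *Cd274* (PD-L1), at 29367455 to 29388095 on the same strand, had 2317, 2534 and 1714 counts in *WT Phf6,RE9a* libraries, against 1119, 967 and 1034 in *VC Phf6,RE9a*. The groups did not overlap, and the *VC Phf6,RE9a* libraries lay close together. The fall was from 142 ± 34.9 to 61.3 ± 4.86 CPM, 2.32-fold (log2 fold change -1.21, standard error 0.18, edgeR adjusted p = 0.00141). These 2 calls held in all 12 alternative analyses, with log2 fold changes of -1.40 to -1.06 for *Cd274* and -4.13 to -3.30 for *Pdcd1lg2*. Of the 50-base stretches of *Cd274*, 12.4% also occur, on either strand, in transcripts of other genes of GENCODE M21, with *AC119228.1* sharing the most. Strand use in counting is not given in the sources used here.

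The fall was larger for PD-L2 than for PD-L1, with 95% intervals of the log2 fold change of -4.63 to -3.20 and -1.63 to -0.80. Per length, in FPKM (fragments scaled by gene length and library size), the ratio of *Pdcd1lg2* to *Cd274* was 0.601, 0.873 and 0.689 in *WT Phf6,RE9a* libraries and 0.116, 0.105 and 0.115 in *VC Phf6,RE9a* libraries. The ratios of the groups were thus well separated, at 0.721 ± 0.139 and 0.112 ± 0.00626 (two-sided exact permutation test, p = 0.1). That is the smallest p that 3 libraries against 3 can give. Summed, the ligands of PD-1 went from 67.5 ± 20.2 to 18.6 ± 1.52 FPKM. *Plgrkt*, a plasminogen receptor gene whose start lies 0.065 kb from that of *Cd274* and points the other way, also fell (log2 fold change -0.52, standard error 0.13, edgeR adjusted p = 0.0125), though without replicate 11 it did not pass (-0.47, adjusted p = 0.0558). *Ric1*, on the far side of *Pdcd1lg2*, did not pass (-0.05, adjusted p = 0.756). The mast cell and basophil markers moved in the same direction as the PD-1 ligands, with values given above, and their part in these results was not tested.

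**Figure D2:**
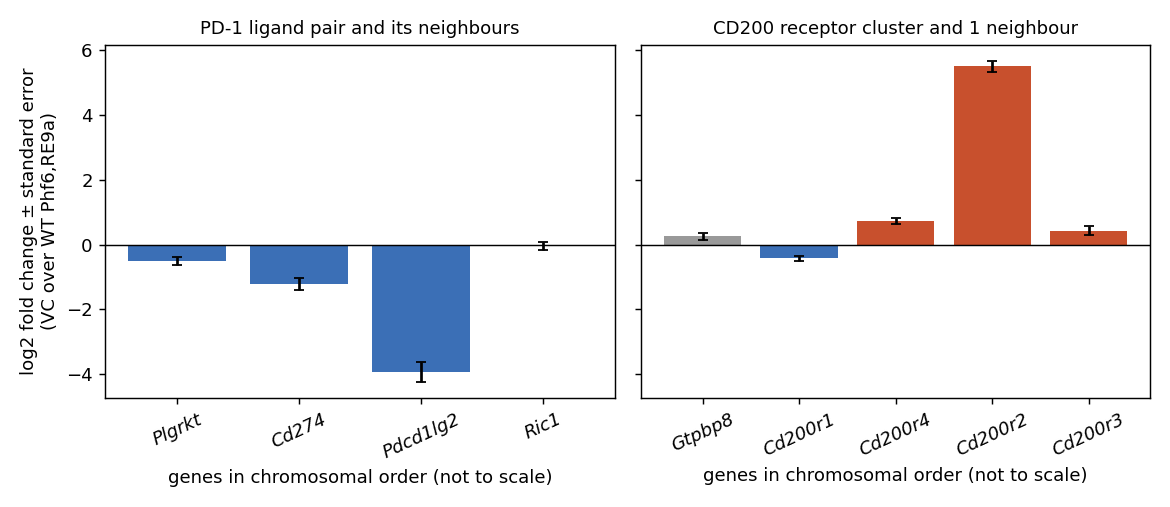
Fitted log2 fold change ± standard error (*VC Phf6,RE9a* over *WT Phf6,RE9a*) of genes side by side on the chromosome, for *Cd274* and *Pdcd1lg2* with their neighbours on the left and for the CD200 receptor genes on the right. Blue bars fell, red bars rose and grey bars did not pass (*Gtpbp8*, and *Ric1*, whose bar is too short to see). On the left the bars grow from -0.52 for *Plgrkt* to -3.91 for *Pdcd1lg2*, and on the right *Cd200r1* is the only one of 4 receptor genes under 0.

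The activating ligands were low, and *Cd86* was near the limit of detection. *Cd80* (chromosome 16, 38455561 to 38496335) gave 16, 20 and 26 reads in *WT Phf6,RE9a* libraries, against 30, 38 and 21 in *VC Phf6,RE9a*. The groups overlapped, and the 95% interval of the log2 fold change, -0.39 to 1.18, leaves a change of either sign possible (estimate 0.40, edgeR adjusted p = 0.378). *Cd86* (chromosome 16, 36603869 to 36666081) gave 2, 4 and 4 counts against 13, 15 and 5. Although each *VC Phf6,RE9a* library lay above each *WT Phf6,RE9a* library, the gene was too low for the test. With no filter on low counts its log2 fold change was 1.55 (edgeR adjusted p = 0.112), and it did not pass. With a library left out it entered the test in 4 cases: it did not pass without replicate 1 (1.30, adjusted p = 0.167), replicate 2 (1.74, adjusted p = 0.0947) or replicate 3 (1.65, adjusted p = 0.111), and it passed without replicate 13 (1.90, adjusted p = 0.0314). The 7 B cell markers, of which 4 were tested and all 4 rose, ranked the *VC Phf6,RE9a* libraries similarly, with 67.0, 67.8 and 24.1 CPM in replicates 11, 12 and 13 and 2.65 to 8.41 CPM in *WT Phf6,RE9a* libraries. The 11 dendritic cell markers summed to 40.9 to 57.9 and 120 to 141 CPM, with 3 of 5 tested that rose. Most of that sum came from *Bst2* (46.9 ± 7.15, then 79.8 ± 1.29 CPM) and *Zbtb46* (0.979 ± 0.573, then 42.2 ± 8.31 CPM), singled out after their values were seen. *Xcr1* and *Clec9a* had at most 4 and 8 counts in a library, and *Flt3* and *Siglech* did not pass. The 11 macrophage markers summed to 14.6 to 30.5 and 36.4 to 39.7 CPM, with 2 of 9 tested that rose. The part of B cells, dendritic cells and macrophages in the *Cd80* and *Cd86* reads was not tested. Summed over both genes, the level was 0.413 ± 0.0875 FPKM in *WT Phf6,RE9a* and 0.640 ± 0.213 FPKM in *VC Phf6,RE9a* cells (exact permutation test, p = 0.3).

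*Havcr2* (TIM-3), at 46454935 to 46481255 on the plus strand of chromosome 11, had 704, 429 and 460 counts in *WT Phf6,RE9a* libraries, against 341, 226 and 374 in *VC Phf6,RE9a*. Every *VC Phf6,RE9a* library was lower than every *WT Phf6,RE9a* library, with replicate 1 well above the rest of its group. The level fell from 34.2 ± 9.97 to 18.5 ± 4.74 CPM (log2 fold change -0.89, standard error 0.25, edgeR adjusted p = 0.0242). The call was lost without replicate 1 (-0.63, adjusted p = 0.0692), replicate 11 (-0.94, adjusted p = 0.0557) or replicate 12 (-0.69, adjusted p = 0.0706). The mast cell and basophil markers were lower in the same libraries (6890 to 7561 CPM against 18396 to 29591 CPM), and their part in the *Havcr2* result was not tested.

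Its ligand galectin-9 had the highest level per length of the 10 genes. *Lgals9*, at 78962974 to 78984946 on the minus strand of chromosome 11, had 7589, 7242 and 9642 counts in *WT Phf6,RE9a* libraries, against 11288, 10456 and 12191 in *VC Phf6,RE9a*. The groups did not overlap, but *WT Phf6,RE9a* replicate 3 came close to the lowest *VC Phf6,RE9a* library. The rise from 523 ± 52.9 to 667 ± 57.6 CPM was small (log2 fold change 0.35, standard error 0.11, edgeR adjusted p = 0.0376). It did not pass without replicate 1 (0.30, adjusted p = 0.110), replicate 2 (0.30, adjusted p = 0.0856), replicate 11 (0.36, adjusted p = 0.0985) or replicate 13 (0.29, adjusted p = 0.139). The changes of receptor and ligand had opposite signs, and the FPKM ratio of *Lgals9* to *Havcr2* went from 20.6 ± 6.52 to 47.5 ± 9.87 (exact permutation test, p = 0.1).

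*Cd47*, at 49800533 to 49915010 on the plus strand of chromosome 16, had 6035, 5970 and 6296 counts in *WT Phf6,RE9a* libraries, against 7119, 7453 and 8049 in *VC Phf6,RE9a*. The *VC Phf6,RE9a* libraries were all higher, by little. The difference in level, from 393 ± 12.02 to 444 ± 30.2 CPM, did not pass (log2 fold change 0.18, standard error 0.089, edgeR adjusted p = 0.142), and its 95% interval ran from -0.028 to 0.38.

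*Sirpa*, the receptor of CD47 on myeloid cells (chromosome 2, 129592835 to 129632228, plus strand), was read 163, 102 and 138 times in *WT Phf6,RE9a* libraries, against 497, 347 and 194 in *VC Phf6,RE9a*. The groups did not overlap, and replicate 13 lay nearer to the *WT Phf6,RE9a* libraries than to replicate 11. The rise was from 8.62 ± 1.85 to 20.4 ± 8.91 CPM (log2 fold change 1.24, standard error 0.34, edgeR adjusted p = 0.0196). It did not pass without replicate 2 (1.09, adjusted p = 0.0558), replicate 3 (1.21, adjusted p = 0.0532), replicate 11 (0.89, adjusted p = 0.0661) or replicate 12 (1.25, adjusted p = 0.0528). Markers of maturing granulocytes and monocytes ranked the *VC Phf6,RE9a* libraries in the same order, with 3849, 2465 and 1038 CPM in replicates 11, 12 and 13. Their part in the *Sirpa* result was not tested. The related genes *Sirpb1a*, *Sirpb1b* and *Sirpb1c* had at most 10 counts in a *WT Phf6,RE9a* library and at most 41 in a *VC Phf6,RE9a* library. They were not tested. They share 40.4% to 58.0% of their 50-base stretches with other genes, mostly with each other, so their counts are uncertain. The degree was not measured, since the 150 bp reads are longer than such stretches. *Sirpa* shared none of its stretches. The FPKM ratio of *Cd47* to *Sirpa* was 36.8 ± 8.47 and 20.2 ± 11.02, and here the groups overlapped (exact permutation test, p = 0.2).

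**Figure D3:**
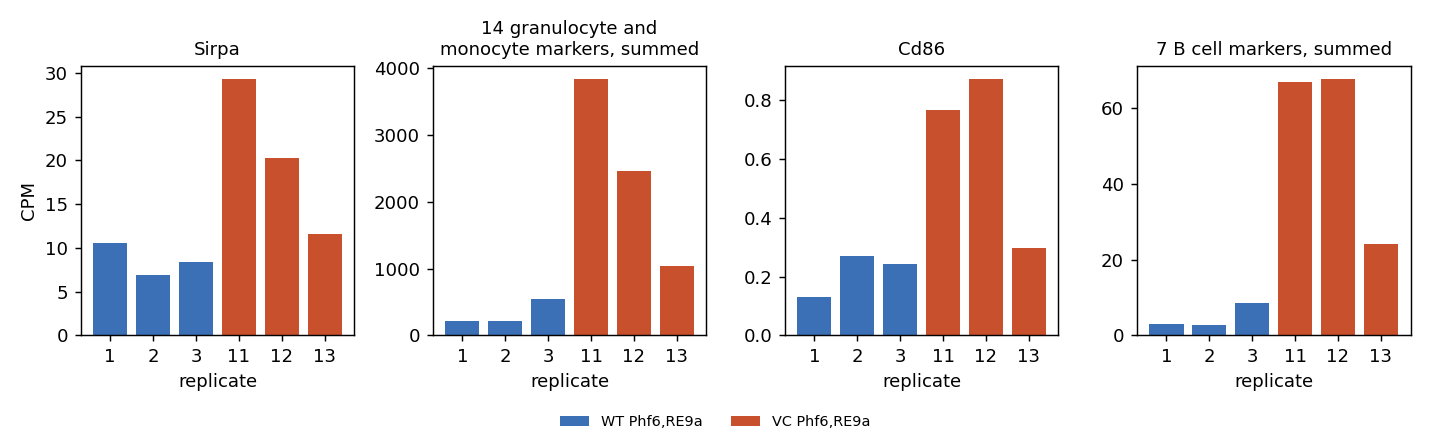
CPM per library (vertical axes, each from 0) of *Sirpa*, of the summed granulocyte and monocyte markers, of *Cd86* and of the summed B cell markers, for *WT Phf6,RE9a* replicates 1 to 3 (blue) and *VC Phf6,RE9a* replicates 11 to 13 (red). Among the *VC Phf6,RE9a* libraries replicate 13 is the lowest in all 4 panels, at 11.5 CPM for *Sirpa* and 1038 CPM for the granulocyte and monocyte markers.

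*Cd200*, at 45382135 to 45409053 on the minus strand of chromosome 16, was not detectable beyond single reads, with 0, 0 and 2 counts in *WT Phf6,RE9a* libraries, against 1, 1 and 0 in *VC Phf6,RE9a*. Both groups were under the limit that a count of 0 allows, and no fold is given. Its receptor gene *Cd200r1*, at 44765736 to 44794978 on the plus strand of the same chromosome, had 1196, 1115 and 1084 counts in *WT Phf6,RE9a* libraries, against 927, 926 and 907 in *VC Phf6,RE9a*. Every *VC Phf6,RE9a* library was lower and these 3 agreed closely, at 54.2 ± 0.469 CPM against 73.0 ± 6.45 CPM (log2 fold change -0.43, standard error 0.091, edgeR adjusted p = 0.00708). The fall passed in all 12 alternatives (-0.51 to -0.39). It too went with lower mast cell and basophil markers, whose part was not tested.

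The 3 paralogs next to *Cd200r1* rose. They encode receptors of the activating type, which pair with adaptor proteins, and CD200R3 is known from mast cells and basophils. *Cd200r2* had 9, 9 and 11 counts in *WT Phf6,RE9a* libraries, against 502, 462 and 468 in *VC Phf6,RE9a*, an increase from near the limit of detection that all 3 libraries shared (log2 fold change 5.48, standard error 0.18, edgeR adjusted p = 1.87e-05). *Cd200r4* had 1941, 1738 and 1729 counts and then 3264, 3143 and 3401 (0.73, adjusted p = 0.000786). *Cd200r3* had 5155, 4069 and 4346 counts and then 6427, 5829 and 7571 (0.42, adjusted p = 0.0395), a call lost without replicate 2 (0.37, adjusted p = 0.0950), replicate 3 (0.34, adjusted p = 0.104), replicate 11 (0.44, adjusted p = 0.0847) or replicate 13 (0.30, adjusted p = 0.139). Within the summed FPKM of the 4 receptor genes, which went from 127 ± 13.6 to 189 ± 12.8, the share of *Cd200r1* went from 17.1% ± 0.697 to 8.48% ± 0.628 and that of *Cd200r2* from 0.281% ± 0.0472 to 8.41% ± 0.614 (exact permutation test, p = 0.1 for each). Between 1.16% and 4.94% of the 50-base stretches of these 4 genes also occur in another gene.

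Levels of different genes can be set side by side only per length, in FPKM. In *WT Phf6,RE9a* cells *Lgals9* led with 243 ± 23.6 FPKM, and *Cd47* followed with 62.2 ± 1.99 FPKM. Next came *Cd274* (39.0 ± 9.63 FPKM), *Pdcd1lg2* (28.5 ± 11.2 FPKM) and *Cd200r1* (21.7 ± 2.01 FPKM), each overlapping its neighbour in this order. Then came *Havcr2* (12.5 ± 3.72 FPKM) and *Sirpa* (1.74 ± 0.382 FPKM), and *Cd80*, *Cd86* and *Cd200* stayed under 1 FPKM. In *VC Phf6,RE9a* cells *Lgals9* (308 ± 24.8 FPKM) and *Cd47* (69.9 ± 4.47 FPKM) kept the top places. *Cd274* (16.7 ± 1.28 FPKM) overlapped *Cd200r1* (15.98 ± 0.168 FPKM), and *Havcr2* (6.71 ± 1.69 FPKM) overlapped *Sirpa* (4.10 ± 1.80 FPKM). *Pdcd1lg2* fell behind *Cd200r1*, *Havcr2* and *Sirpa*, at 1.87 ± 0.239 FPKM.

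**Figure D4:**
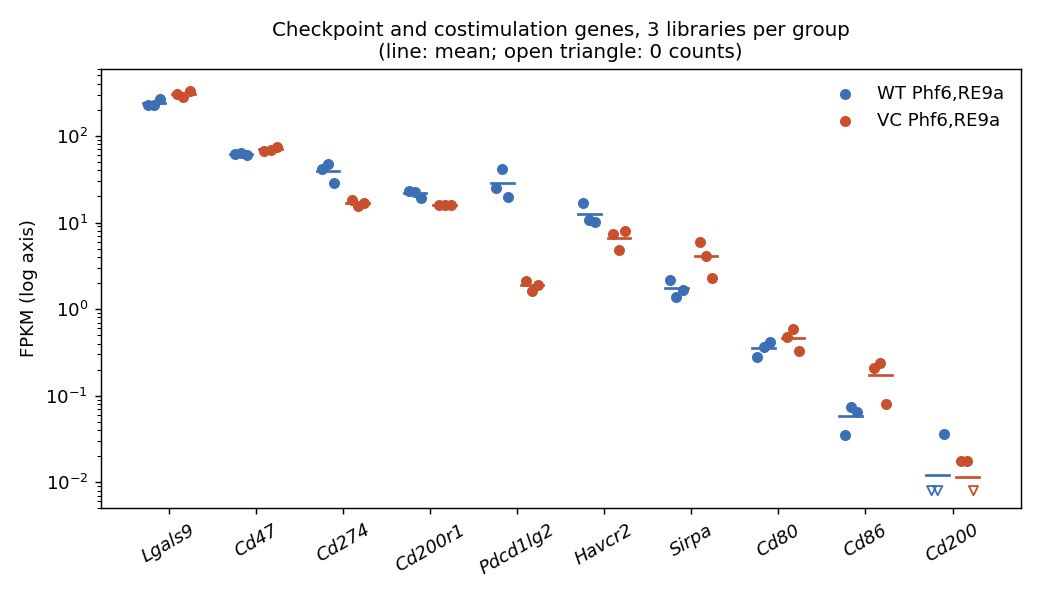
FPKM on a log axis of the 10 genes in each of the 3 *WT Phf6,RE9a* (blue) and 3 *VC Phf6,RE9a* (red) libraries, ordered by their mean over all libraries. Lines mark group means and open triangles libraries with 0 counts. *Lgals9* and *Cd47* stand highest in both groups, *Pdcd1lg2* shows the widest gap between groups, and *Cd200* has 0 counts in 3 libraries.

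Beyond the 10 genes, a list of 31 other genes by which a cell can act on T and NK cells gave 17 with enough counts. Most are ligands of the B7, butyrophilin, nectin, SLAM and TNF families, and the list also holds galectin genes, other ligands and the enzyme genes *Entpd1*, *Nt5e* and *Ido1*. Of the 17 tested, 5 rose, 7 fell and 5 did not pass, with a median log2 fold change of -0.40. The background for this list is 21.5% of all genes tested that rose and 22.7% that fell. *Slamf1*, a self-ligand of the SLAM family, went from 535, 902 and 724 counts to 11, 29 and 20 (log2 fold change -5.30, standard error 0.35, edgeR adjusted p = 5.16e-05). *Cd276*, which encodes B7-H3, fell (log2 fold change -1.89), as did *Cd48* (-1.502) and the galectin gene *Lgals3* (-2.61). *Tnfrsf14*, which encodes the BTLA ligand HVEM, rose (1.55). *Vsir*, which encodes the B7 family checkpoint VISTA and was singled out after its values were seen, rose from 148, 158 and 291 counts to 1540, 1368 and 992 (2.59, standard error 0.26, edgeR adjusted p = 0.000245). Without replicate 13 the list had 8 genes that rose in place of 5. No library had a read of 6 of the 31 genes, among them *Cd70* and *Ido1*, also singled out after their values were seen.

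Of 18 receptors by which T and NK cells read such ligands, 7 could be tested, and 1 rose, 2 fell and 4 did not pass. The median log2 fold change of these 7 was -0.78, and 44.2% of all genes tested were called in one direction or the other. The other 11 had too few counts, so the median does not speak for the list. Over all 18, 6 had every *VC Phf6,RE9a* library above every *WT Phf6,RE9a* library and 2 had every one below. Among all genes tested these shares were 28.9% and 28.4%. *Pdcd1*, which encodes PD-1, had at most 2 counts in a library. *Tnfrsf9*, which encodes the costimulatory receptor 4-1BB, had 350, 411 and 258 counts in *WT Phf6,RE9a* libraries, against 1, 1 and 0 in *VC Phf6,RE9a*, a ratio of 556 with a 95% counting interval of 154 to 4598 (edgeR adjusted p = 2.84e-05). The gene of its ligand, *Tnfsf9*, singled out after its values were seen, went from 94, 107 and 98 counts to 18, 19 and 19 (log2 fold change -2.54, edgeR adjusted p = 0.000214). *Tnfrsf18*, which encodes GITR, fell by 1.10 on the log2 scale. *Tnfrsf4* (OX40) rose by 0.68 (edgeR adjusted p = 0.0465), and did not pass without replicate 1, 2, 3, 11 or 13 (0.62, 0.67, 0.74, 0.65 and 0.57). The number of receptors that rose went to 0 without replicate 1, 3 or 11 and to 2 without replicate 13.

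Among 28 other genes by which phagocytes take or leave a cell, 22 were tested. They include *Cd200r2*, *Cd200r3* and *Cd200r4*, which rose and are described above. In all 11 rose, 5 fell and 6 did not pass (median log2 fold change 0.54), against 21.5% of all genes tested that rose and 22.7% that fell. The count that rose was 5 without replicate 11 and 6 without replicate 12. *Cd24a*, the "do not eat me" molecule read by Siglec receptors, was the most abundant that rose, from 294 to 404 FPKM (log2 fold change 0.47, edgeR adjusted p = 0.0365). It did not pass without replicate 1, 2, 11 or 12 (0.49, 0.37, 0.47 and 0.34). *Calr*, whose product calreticulin invites uptake when it reaches the surface, did not pass (-0.16, adjusted p = 0.425). *Lilrb4a* and *Lilr4b*, inhibitory and related receptor genes that lie side by side, fell (log2 fold changes -5.004 and -4.98), from 225 and 419 FPKM to 6.99 and 13.2 FPKM. They share 47.2% and 24.5% of their 50-base stretches with other genes, so their counts are uncertain. How far was not measured, since the 150 bp reads are longer than such stretches.

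The inhibitory receptors signal through phosphatases, kinases and adaptors. All 15 such genes could be tested, of which 5 rose, 6 fell and 4 did not pass (median log2 fold change -0.03). Over all genes tested, 21.5% rose and 22.7% fell. *Inpp5d*, which encodes the phosphatase SHIP1, fell by 1.02, and so did the CD200 receptor adaptor gene *Dok2* and its partner *Rasa1* (log2 fold changes -1.25 and -0.53). The related adaptor gene *Dok1*, singled out after its values were seen, rose (0.42, edgeR adjusted p = 0.0151), and did not pass without replicate 12 (0.39, adjusted p = 0.0603). *Csk* (0.09) and *Grb2* (-0.22) did not pass. Leaving out replicate 1 or 12 left 3 that rose and 3 that fell, and leaving out replicate 11 left 3 that fell.

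PD-L1 is induced by interferon through JAK and STAT proteins and is kept at the surface by CMTM6. A list of 21 regulators and stabilisers holds genes of these kinds and also *Myc*, *Cdk5*, *Stub1* and *Spop*. From it 20 were tested, 2 rose, 5 fell and 13 did not pass (median log2 fold change 0.10). Among all genes tested, 21.5% rose and 22.7% fell. *Socs1*, itself a brake on JAK signaling, fell (log2 fold change -1.53, edgeR adjusted p = 0.000422), as did *Stat3* (-0.71, adjusted p = 0.000505), *Jak2* (-0.49, adjusted p = 0.00618) and *Cmtm6* (-0.73, adjusted p = 0.000366). *Jak1* fell by 0.35 (adjusted p = 0.0186), and did not pass without replicate 11 (-0.31) or 12 (-0.32). *Myc* rose (1.53, adjusted p = 0.00265). The number that rose was 6 without replicate 2 and 1 without replicate 1, 11 or 12.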

How the data were processed

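Total RNA of 6 sorted samples was sequenced on an Illumina NovaSeq with 150 bp paired-end reads. The authors deposited, for each library, read counts per Ensembl gene without normalization, and FPKM values, which equal those counts divided by the deposited gene length (a column of another kind) and by a library size scaled with DESeq2 size factors. The deposited table also holds the authors' mean normalized counts, log2 fold changes and p-values, which were not used. The submitters' processing notes name Bowtie 0.12.0 and mm8, but 98.3% of the 54409 identifiers found in GENCODE M21 (GRCm38) have the same start and end there, as have 9 of the 10 members, so coordinates are given on GRCm38. The counter, the annotation release and the strand setting are not given in the sources used here.

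In R 4.3.3, genes were filtered with filterByExpr (14169 of 54532 kept), scaled by TMM and compared with edgeR 4.0.16 (quasi-likelihood test, Benjamini-Hochberg adjustment over all genes tested, threshold 0.05). Intervals cover 95%. Ratios were compared by two-sided exact permutation tests. The test was tried on simulated counts. Replicate libraries were not copies of each other (chi-square of their counts 11.8 to 46.4 per gene). Stretches of 50 bases shared between genes were counted in GENCODE transcripts. Promoter windows are from RefSeq (GRCm38.p6). The alternatives were DESeq2 1.42.0, RLE scaling, no low-count filter, a minimum of 10 counts in each library, limma 3.58.1 on log2(FPKM + 1) and log2(FPKM + 0.1), and each library left out in turn. The text names the members, *Phf6*, the 3 most abundant and the 3 smallest p of each list, paralogs, nearest tested neighbours and defining markers. The members and the gene lists were chosen with earlier results of these data known. A marker gene is not reported here and was left out of its list for a reason unrelated to its values.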

Additional observations from a re-analysis of the deposited data

How the results depend on the processing

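*Cd274*, *Pdcd1lg2* and *Cd200r1* stayed past the threshold, and *Cd80* and *Cd47* short of it, in the same direction in all 12 alternatives. The members that rose were 1 in place of 2 with limma on log2(FPKM + 1) and on log2(FPKM + 0.1), where *Lgals9* gave 0.34 each time (adjusted p = 0.0568 and 0.0583), and 0 to 2 with a library left out. Without single libraries the log2 fold change was -1.04 to -0.63 for *Havcr2*, 0.29 to 0.43 for *Lgals9* and 0.89 to 1.52 for *Sirpa*, with adjusted p-values from edgeR of up to 0.0706, 0.139 and 0.0661. With no count filter 8 genes of the T cell ligand list rose in place of 5. With at least 10 counts in every library, which leaves fewer genes to test, 7 phagocyte genes rose in place of 11 and 1 T and NK cell receptor fell in place of 2. Leaving out single libraries gave 4 to 8 genes of the T cell ligand list, 5 to 11 phagocyte genes, 3 to 5 relays, 1 to 6 regulators of PD-L1 and 0 to 2 receptors that rose, and 3 to 6 relays that fell. For the other changes the cause was not tested. Reversals were seen for genes that never passed: *Csk* (-0.010 without *WT Phf6,RE9a* replicate 2, and up to 0.14 without others), *Ric1* (0.0096 without *WT Phf6,RE9a* replicate 2, 0.033 without *VC Phf6,RE9a* replicate 11, and down to -0.13) and *Ift57*, the neighbour of *Cd47* (0.0092 with limma on log2(FPKM + 0.1), 0.36 without *WT Phf6,RE9a* replicate 1, 0.070 without *VC Phf6,RE9a* replicate 12, and down to -0.24). No paired analysis was possible because the groups share no replicate number. At 3 libraries a group an exact permutation test cannot go below 0.1, and genes with few counts, such as *Cd80*, *Cd86* and *Cd200*, are limited by depth.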

Other observations

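The nearest tested protein coding genes on either side of the other members did not follow the members as a rule. Genes that were not tested were passed over, so a gene named here as beside a member need not be adjacent to it. The gap to the member was 277 kb for *Bbx*, 28.5 kb for *Ksr1* and 56.2 kb for *F830045P16Rik*. It was 218 kb for *BC016579*, 346 kb for *2010005H15Rik* and 2319 kb for *Rack1*. *Bbx*, beside *Cd47*, fell by 0.50 on the log2 scale (edgeR adjusted p = 0.0186) and did not pass without *WT Phf6,RE9a* replicate 1 (-0.41) or *VC Phf6,RE9a* replicate 11 (-0.40). *Ksr1*, beside *Lgals9*, which rose, fell by 0.97 (adjusted p = 0.00292). *F830045P16Rik*, beside *Sirpa*, which rose, fell by 2.56 (adjusted p = 0.00499), and *BC016579*, beside *Cd200*, fell by 2.03 (adjusted p = 0.000205). *2010005H15Rik*, beside *Cd86*, rose (1.68, adjusted p = 0.00975). The other neighbours tested (*Adprh*, *Timmdc1*, *Eaf2*, *Med7*, *Rack1*, *Lyrm9*, *Ift57*, *Stk35*, *Atg3* and *Gtpbp8*) did not pass.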
